A study of Rattus norvegicus with 4 samples.

Results

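The immediate early and MAPK feedback genes are described here in L6 rat skeletal myoblasts that differed in human HGF expression and in culture format. The set holds 42 genes listed by function: the AP-1, EGR, NR4A and KLF transcription factors and other early genes, the dual-specificity phosphatases, the Sprouty and Spred inhibitors, and the PEA3 group of ETS factors. A gene was measured through every probe set, the group of oligonucleotides that reads a transcript on the array, whose annotation gave its symbol alone. In total, 39 of the 42 genes had such probe sets, 67 in all, out of 14217 genes and 31042 probe sets compared. Btg2, Spred1 and Spred2 had none, so that their expression was not analysed, but they enter the promoter counts below. The study put RNA of 4 cultures on Affymetrix rat genome arrays, a single array each for the L6-WT monolayer, L6-HGF monolayer, L6-WT sheet and L6-HGF sheet. L6 is an established myoblast line, labelled as of Wistar strain. L6-HGF cells carried human hgf in a retroviral vector under puromycin selection, and the sources used here describe no control with an empty vector, so that hHGF, vector and selection cannot be told apart. A sheet is a layer of densely plated myoblasts that comes off a thermoreactive dish in a single piece at room temperature. Whether the sheets were lysed before or after they came off the dish, and how long after, the sources used here do not say.

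Immediate early genes are transcribed within minutes of a stimulus such as serum, a growth factor or mechanical stress, without prior protein synthesis. In the classical route, a receptor tyrosine kinase such as MET, the HGF receptor, activates RAS, RAF, MEK and ERK. ERK phosphorylates ternary complex factors, which together with serum response factor act on CArG boxes, while other kinases act on cyclic AMP response elements (CRE) through CREB and ATF proteins. The products include transcription factors (FOS, JUN, EGR1), RNA-binding proteins that shorten mRNA life (ZFP36), and inhibitors that turn the pathway off again, namely the DUSP phosphatases, which dephosphorylate MAP kinases, and the Sprouty proteins, which act upstream of ERK.

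The deposited values are log2 values centred for each probe set on the median of its 4 arrays. Differences between arrays remain in them but signal levels do not, which leaves levels of different genes without comparison, probe sets near background unrecognised, and the presence of myoblast markers unchecked. With 1 array per condition, no comparison between 2 arrays has a test, and a difference in a gene was called when it passed 2-fold. Technical spread was read from 45 probe sets for bacterial spike-in RNA, whose SD was between 0.12 and 0.22 (log2) over the 4 comparisons, with 0 of them past 2-fold. Fewer cells of a type and less RNA per cell cannot be told apart in bulk samples. Of 6 fibroblast markers, Dpt, Lum and Dcn were more than 2-fold higher in sheets than in monolayers of both cell lines. Shares over all genes were 0.717% in L6-WT and 1.17% in L6-HGF. The other fibroblast markers did not follow, with Thy1 at -0.42 in L6-WT and -0.52 in L6-HGF (log2, sheet minus monolayer). Pdgfra had 0.0066 and -0.38 in the same order, and Tcf21 0.27 and -0.11. All 6 were lower in L6-HGF than in L6-WT sheets, with differences between -1.08 and -0.20 (log2). The 6 measured myoblast markers, 3 endothelial markers and 3 leukocyte markers all lay within 2-fold in every comparison. Over all genes, 4.76% passed 2-fold in at least 1 comparison. The difference between 3′ and 5′ probe sets of the actin control, which moves with RNA integrity, ranged over 0.23 (log2) in the 4 arrays. The control for 5S ribosomal RNA stood at 0.75 in the L6-WT sheet and between -0.10 and 0.07 in the other arrays. The part of these measures in the results below was not tested.

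Between the cell lines, more of the early and feedback genes passed 2-fold in sheets than in monolayers, and between the formats 5 passed it in each cell line. In L6-HGF compared with L6-WT monolayers, 1 of 39 genes was more than 2-fold lower and 0 were higher, against 0.309% and 0.225% of all genes. Between the sheets, 8 genes were past 2-fold on the lower side in L6-HGF and 0 on the higher, against 0.95% and 0.492% of all genes. These were Fos, Fosb, Junb, Egr1, Ier2, Zfp36, Dusp6 and Etv1. In L6-WT, 3 genes were more than 2-fold higher in the sheet than in the monolayer (Fos, Junb and Dusp1) and 2 were lower (Nr4a1 and Nr4a3), against 0.717% and 0.492% of all genes. In L6-HGF, 0 genes were higher and 5 were lower in the sheet (Egr1, Nr4a1, Nr4a3, Phlda1 and Dusp6), against 1.17% and 2.57% of all genes. Counted by probe set, 14 of 67 were past 2-fold on the lower side in L6-HGF against L6-WT sheets and 10 in the L6-HGF sheet against its monolayer, against 0.715% and 2.04% of all probe sets. Quantile normalization brought Dusp6 (-0.71) and Etv1 (-0.98, log2) within 2-fold between the sheets, and Nr4a1 (-0.94) and Phlda1 (-0.90) between the formats of L6-HGF. The median of probe sets in place of the mean did so for Nr4a3 between formats, with -0.56 in L6-WT and -0.83 in L6-HGF. The 2 comparisons between cell lines share no array with each other, nor do the 2 between formats, but each comparison between cell lines shares an array with each comparison between formats.

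Members lay on both sides of 0 in every comparison. Their signed medians were nearest 0 between the monolayers and between the formats of L6-WT. For L6-HGF against L6-WT, the median of the log2 differences was -0.0052 in monolayers and -0.18 in sheets, against 0.0016 and -0.02 over all genes. Between sheet and monolayer it was -0.016 in L6-WT and -0.14 in L6-HGF, against 0.028 and 0.026 over all genes. The median size of the difference, without its sign, was 0.17 in monolayers and 0.33 in sheets between the cell lines, against 0.13 and 0.15 over all genes. Between the formats it was 0.37 in both cell lines, against 0.19 in L6-WT and 0.20 in L6-HGF over all genes. The SD of the centred values over the 39 genes was 0.58 in the L6-HGF sheet and 0.56 in the L6-WT sheet, whereas over all genes it was 0.29 and 0.21. In the monolayers the SD of the 39 genes was 0.27 in L6-HGF and 0.30 in L6-WT, against 0.22 and 0.20 over all genes. In all, 13 genes passed 2-fold in at least 1 comparison, against 4.76% of all genes, and 26 passed it in none, and the differences of those 26 lay between -0.93 and 0.90. The L6-HGF sheet held the lowest value of the 4 arrays for 16 of the 39 genes, or 41.0%, against 26.0% of all genes.

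**Figure D1:**
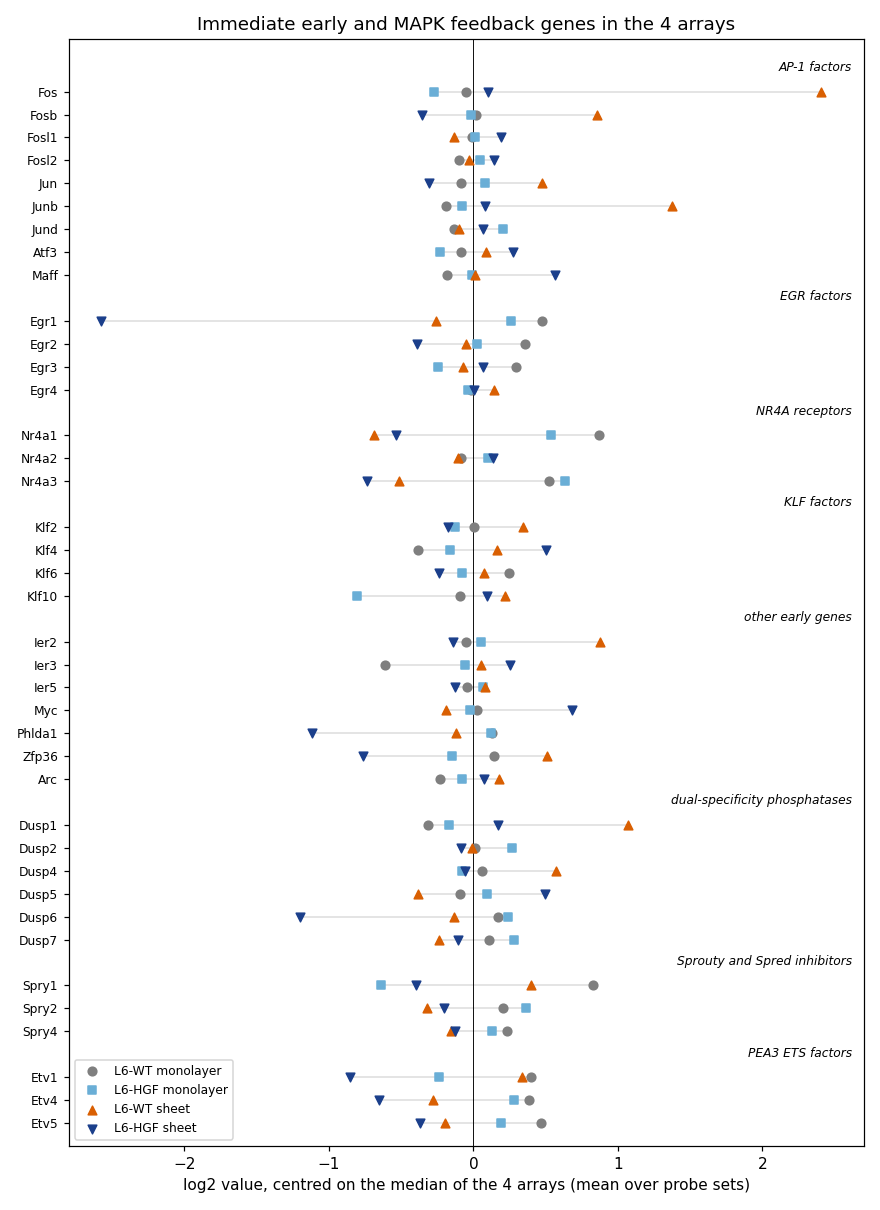
Centred log2 value (horizontal axis, mean over the probe sets of a gene) of 39 immediate early and MAPK feedback genes, grouped by role, in the 4 arrays, with 1 symbol per array and a grey line over their range. The L6-WT sheet (orange triangles) lies to the right of the other arrays for Fos (2.41) and Junb (1.37), and the L6-HGF sheet (dark blue triangles) to the left for Egr1 (-2.58) and Dusp6 (-1.20).

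The 8 genes with a lower value in L6-HGF than in L6-WT sheets stood apart in different arrays. For Fos, Fosb, Junb and Ier2, the larger of the 2 differences between sheet and monolayer was the one in L6-WT, where the sheet was higher. For Egr1, Zfp36, Dusp6 and Etv1, it was the one in L6-HGF, where the sheet was lower. Etv1 was also lower in L6-HGF monolayers, and its log2 difference of -0.64 between the monolayers was as large as the -0.61 between the formats of L6-HGF.

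Promoter sequences were available in RefSeq (build GRCr8) for 30 of the 42 listed genes, in 31 promoters. Fos, Jun, Myc and Nr4a3 are among the genes without a promoter sequence, so that the shares below do not cover them. The 250 bases before each annotated gene start were searched on both strands for the CArG box, for the CRE TGACGTCA, for the AP-1 site TGANTCA and for the EGR site GCGNGGGCG. No match of any of these motifs overlapped another among the sequences printed here. A CArG box was found in 6 of the 31 promoters, or 19.4%, against 1.5% of 33469 promoters of all genes, in Egr1, Egr2, Dusp5, Etv1, Klf6 and Zfp36. A CRE was found in 5, or 16.1%, against 1.59%, an EGR site in 11, or 35.5%, against 4.29%, and an AP-1 site in 0, against 6.34%. A match describes these letters in this window and is not evidence that a factor binds there. The windows of Fosb, Junb and Dusp6, which were also lower in L6-HGF than in L6-WT sheets, held no match of any of these motifs. The sequences below are from 5 genes past 2-fold in a comparison, chosen for their CArG box (Egr1, Zfp36, Etv1) or CRE (Ier2, Dusp1). That of Dusp5, which has CArG boxes and whose values went the other way, is added. Capitals mark the motif matches, and each sequence runs 5′ to 3′ on the strand of its gene. Egr1 lies at chr18:26736828-26737077 (plus strand), Zfp36 at chr1:92799109-92799358 (minus strand), Etv1 at chr6:61317179-61317428 (plus strand), Ier2 at chr19:40399123-40399372 (plus strand), Dusp1 at chr10:17184603-17184852 (plus strand) and Dusp5 at chr1:262543524-262543773 (plus strand).
Egr1: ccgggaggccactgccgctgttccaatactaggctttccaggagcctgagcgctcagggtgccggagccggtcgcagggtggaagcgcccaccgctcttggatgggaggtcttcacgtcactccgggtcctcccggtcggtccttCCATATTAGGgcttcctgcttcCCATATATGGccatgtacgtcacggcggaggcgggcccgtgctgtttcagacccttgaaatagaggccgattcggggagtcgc
Zfp36: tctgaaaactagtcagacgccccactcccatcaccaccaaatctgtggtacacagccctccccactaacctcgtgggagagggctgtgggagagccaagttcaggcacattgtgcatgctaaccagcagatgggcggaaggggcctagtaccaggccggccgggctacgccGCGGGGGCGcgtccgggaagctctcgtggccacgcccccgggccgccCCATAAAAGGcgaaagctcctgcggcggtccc
Etv1: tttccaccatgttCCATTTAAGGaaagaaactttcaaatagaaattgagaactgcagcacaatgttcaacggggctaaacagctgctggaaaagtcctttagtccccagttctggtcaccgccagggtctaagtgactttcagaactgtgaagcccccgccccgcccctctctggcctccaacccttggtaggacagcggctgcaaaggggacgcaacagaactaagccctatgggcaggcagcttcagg
Ier2: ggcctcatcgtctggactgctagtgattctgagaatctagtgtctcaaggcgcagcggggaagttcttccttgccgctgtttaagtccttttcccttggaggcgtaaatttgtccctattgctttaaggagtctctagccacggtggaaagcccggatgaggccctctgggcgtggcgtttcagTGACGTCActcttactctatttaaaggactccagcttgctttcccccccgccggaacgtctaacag
Dusp1: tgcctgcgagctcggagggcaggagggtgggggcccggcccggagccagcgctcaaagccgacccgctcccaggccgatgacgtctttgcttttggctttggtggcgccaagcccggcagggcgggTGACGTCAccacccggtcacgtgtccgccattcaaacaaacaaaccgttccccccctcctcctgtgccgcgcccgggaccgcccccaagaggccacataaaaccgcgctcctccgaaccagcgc
Dusp5: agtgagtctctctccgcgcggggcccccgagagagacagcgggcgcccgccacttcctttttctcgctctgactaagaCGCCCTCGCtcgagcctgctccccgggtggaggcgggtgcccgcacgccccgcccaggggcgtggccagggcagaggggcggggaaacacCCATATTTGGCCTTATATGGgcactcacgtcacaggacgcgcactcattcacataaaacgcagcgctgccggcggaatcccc

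The Egr1 window held 2 CArG boxes, CCATATTAGG from 105 to 96 and CCATATATGG from 83 to 74 bases before the gene start. The Dusp5 window held 2 CArG boxes as well, side by side from 82 to 63 bases before the start, and an EGR site upstream of them. In Zfp36 the CArG box CCATAAAAGG lay from 32 to 23 bases and the EGR site from 79 to 71 bases before the start. In Etv1 the CArG box CCATTTAAGG lay farther away, from 237 to 228 bases before the start. The CRE lay from 66 to 59 bases before the start in Ier2 and from 124 to 117 in Dusp1.

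AP-1 is a dimer of FOS and JUN proteins that drives genes of growth, matrix breakdown and inflammation. Of its 9 genes measured here, Fos, Junb and Fosb passed 2-fold between the sheets, with less in L6-HGF than in L6-WT. One of the 2 probe sets of Fos stood at -0.04 in the L6-WT monolayer, -0.55 in the L6-HGF monolayer, 4.83 in the L6-WT sheet and 0.04 in the L6-HGF sheet. The L6-WT sheet alone was high, and its difference of 4.87 from the L6-WT monolayer was the largest increase of all 31042 probe sets in that comparison. The difference of -4.78 between L6-HGF and L6-WT sheets was likewise the lowest of all 31042. The other probe set of Fos stayed between -0.07 and 0.17 in the 4 arrays. The mean of both was 5.51-fold higher in the L6-WT sheet than in the L6-WT monolayer and 4.94-fold lower in L6-HGF than in L6-WT sheets, so that these folds hold a probe set that moved and another that did not. Under quantile normalization the log2 differences of the mean were 1.57 and -1.42, in place of 2.46 and -2.30.

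**Figure D2:**
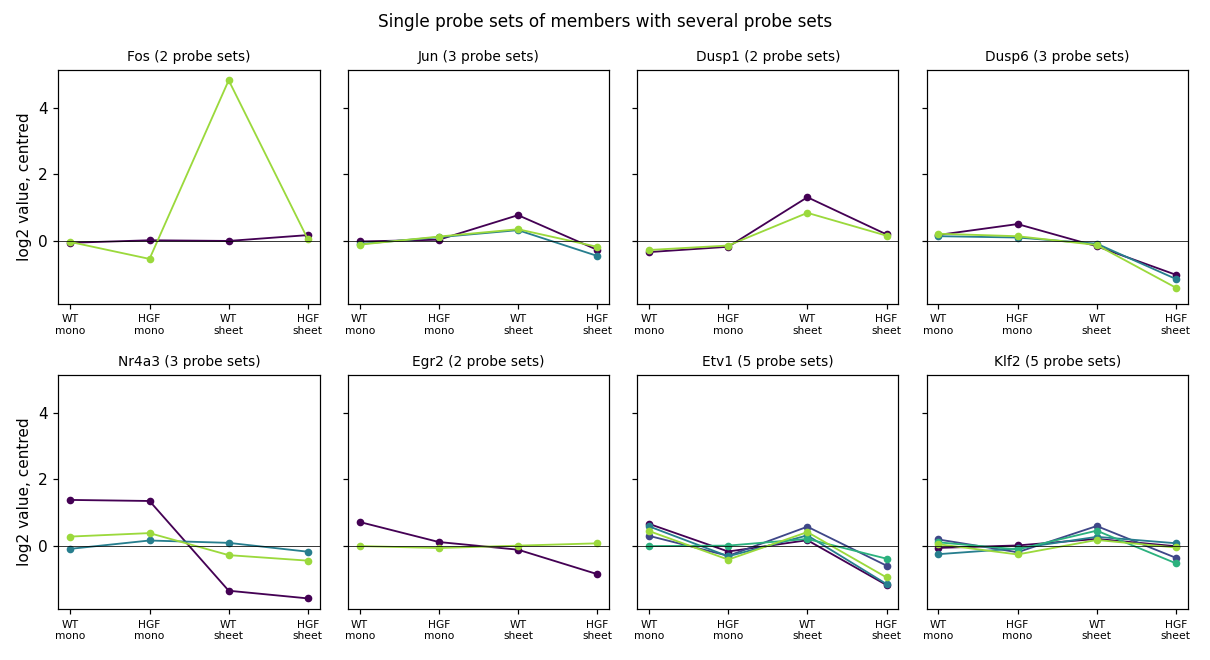
Centred log2 value (vertical axis) of every probe set of 8 genes with several probe sets, in the 4 arrays (horizontal axis, 1 array per condition), with 1 line per probe set. In Fos and Nr4a3 a single probe set carries most of the movement, at 4.83 in the L6-WT sheet for Fos, whereas the probe sets of Jun, Dusp1 and Dusp6 run together.

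Junb, which encodes a JUN protein that restrains growth in many cells, stood at -0.19 in the L6-WT monolayer, -0.08 in the L6-HGF monolayer, 1.37 in the L6-WT sheet and 0.08 in the L6-HGF sheet. It was 2.96-fold higher in the L6-WT sheet than in the L6-WT monolayer, against 1.12-fold in L6-HGF. Fosb, a relative of Fos, stood at 0.02, -0.02, 0.86 and -0.36 in the same order of arrays. It was 2.32-fold lower in L6-HGF than in L6-WT sheets. For both genes the L6-WT sheet was the highest array and the 2 monolayers were close to each other. Jun, the main partner of FOS, stood at -0.08, 0.08, 0.47 and -0.31, with -0.78 (log2) between the sheets. Its 3 probe sets gave -1.04, -0.78 and -0.53, of which 1 passed 2-fold.

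The remaining AP-1 genes stayed within 2-fold and did not share this order of arrays. Fosl1 and Fosl2, the FRA proteins, had 0.32 and 0.17 (log2, L6-HGF minus L6-WT) in sheets. Atf3, a stress-induced factor, had 0.19 and Maff, a small partner of the AP-1 family, 0.55. Jund, the JUN protein that is usually present in resting cells, had 0.17, and its 3 probe sets lay between -0.26 and 0.73 in monolayers. In the L6-WT sheet, Fosl1 was the lowest of the 4 arrays, at -0.13.

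EGR1 is a zinc finger factor whose mRNA appears within minutes of ERK activation. Egr1 stood at 0.48 in the L6-WT monolayer, 0.26 in the L6-HGF monolayer, -0.26 in the L6-WT sheet and -2.58 in the L6-HGF sheet, from 1 probe set. The L6-HGF sheet alone was far below the others. Egr1 was 7.16-fold lower in the L6-HGF sheet than in the L6-HGF monolayer, against 1.67-fold lower in L6-WT. Between the sheets it was 5.0-fold lower in L6-HGF, and among all 14217 genes 2 had a lower difference. In monolayers the difference between the cell lines was -0.22. Fos and Egr1 were both lower in L6-HGF than in L6-WT sheets and stood apart in different arrays, as the plot of the 39 genes shows.

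Egr2 and Egr3, relatives of Egr1, stayed within 2-fold. Egr2 had -0.33 both in monolayers and in sheets as the mean of 2 probe sets, of which the first stood at 0.72, 0.12, -0.12 and -0.85 (L6-WT monolayer, L6-HGF monolayer, L6-WT sheet, L6-HGF sheet) and the other between -0.07 and 0.08. The 4 arrays had the same order in the first probe set as in Egr1, with the L6-WT monolayer highest and the L6-HGF sheet lowest. Egr3 had -0.53 in monolayers and 0.14 in sheets, and Egr4 -0.02 and -0.14.

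The NR4A genes encode orphan nuclear receptors that in muscle are induced by exercise and adrenergic signals. Nr4a1 and Nr4a3 were lower in both sheets than in both monolayers. Nr4a1 stood at 0.87 in the L6-WT monolayer, 0.54 in the L6-HGF monolayer, -0.69 in the L6-WT sheet and -0.54 in the L6-HGF sheet. It was 2.94-fold lower in the sheet than in the monolayer of L6-WT and 2.11-fold lower in that of L6-HGF. The format separated the arrays, and the 2 sheets differed by 0.15. Nr4a3 was 2.05-fold lower in the sheet of L6-WT and 2.58-fold lower in that of L6-HGF over 3 probe sets with unlike values. The first of them stood at 1.38, 1.35, -1.35 and -1.58 (L6-WT monolayer, L6-HGF monolayer, L6-WT sheet, L6-HGF sheet), the second moved the same way with -0.56 and -0.83 between formats, and the other had 0.18 in L6-WT and -0.34 in L6-HGF. The difference of the first probe set between formats, -2.73 in L6-WT and -2.93 in L6-HGF, ranked 2nd and 3rd from the lowest of 31042 probe sets. Nr4a2 stood between -0.11 and 0.13 in all 4 arrays.

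**Figure D3:**
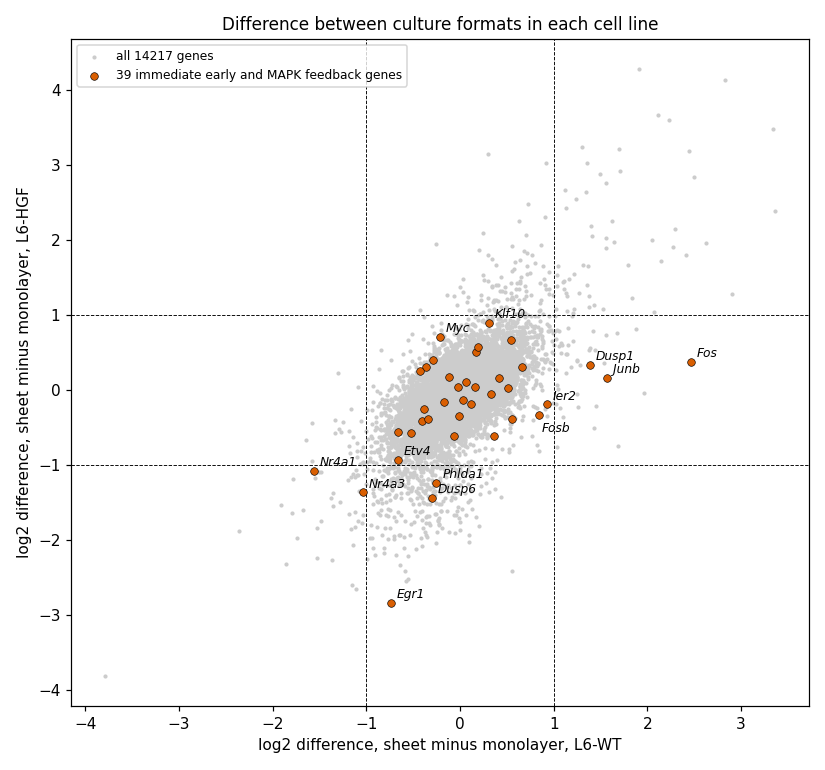
Log2 difference between sheet and monolayer in L6-WT (horizontal axis) and in L6-HGF (vertical axis) for 14217 genes (grey) and the 39 immediate early and MAPK feedback genes (orange), with 1 point per gene and dashed lines at 2-fold. Nr4a1 and Nr4a3 lie past 2-fold below 0 on both axes, Fos, Junb and Dusp1 past 2-fold above 0 in L6-WT alone, and Egr1 lowest of the 39 genes in L6-HGF.

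Of the 4 KLF genes, none passed 2-fold in any comparison, against 4.76% of all genes in at least 1. At this share, 0 of 4 does not set the KLF genes apart from all genes. KLF2 and KLF4 are zinc finger factors known for their response to fluid shear in endothelium, and KLF6 and KLF10 for their response to injury and to TGF-beta. Klf2 had -0.52 (log2) in L6-HGF against L6-WT sheets over 5 probe sets, which lay between -0.98 and -0.19. Klf4 was higher in sheets than in monolayers, by 0.54 in L6-WT and 0.67 in L6-HGF. Klf10 stood at -0.81 in the L6-HGF monolayer and between -0.09 and 0.22 in the other arrays, so that it was lower in L6-HGF monolayers, by -0.71, and by -0.12 in sheets. The 3 probe sets of Klf6 lay between -0.43 and -0.14 in L6-HGF compared with L6-WT, over both formats.

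The other early genes did not share an order of arrays. Ier2, a nuclear early response protein, stood at -0.05 in the L6-WT monolayer, 0.05 in the L6-HGF monolayer, 0.88 in the L6-WT sheet and -0.14 in the L6-HGF sheet. The L6-WT sheet alone was high, as for Fos, and the difference between the sheets, 2.02-fold, lay just past the threshold. Zfp36, which encodes the mRNA-destabilising protein tristetraprolin, stood at 0.15, -0.15, 0.51 and -0.76 in the same order. It was 2.42-fold lower in L6-HGF than in L6-WT sheets, with the L6-WT sheet above and the L6-HGF sheet below both monolayers. Phlda1, which encodes a pleckstrin homology-like protein, stood at 0.13, 0.12, -0.12 and -1.12. The L6-HGF sheet alone was low, as for Egr1, and 2.36-fold below the L6-HGF monolayer, whereas between the sheets the difference of 1.99-fold stayed just within the threshold.

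Myc, the growth-promoting factor, went the other way. It stood at 0.03 in the L6-WT monolayer, -0.03 in the L6-HGF monolayer, -0.19 in the L6-WT sheet and 0.68 in the L6-HGF sheet, where it was highest, with 1.83-fold more in the L6-HGF than in the L6-WT sheet. Ier3, an early gene tied to survival, had log2 differences between the cell lines of 0.55 in monolayers and 0.20 in sheets. Ier5 had 0.11 and -0.20 over 3 probe sets, and Arc, best known as a synaptic early gene, 0.16 and -0.10.

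The dual-specificity phosphatases differed among themselves. DUSP1 acts in the nucleus and prefers JNK and p38, whereas DUSP6 acts in the cytoplasm and is selective for ERK, and its mRNA is commonly read as a measure of ERK output. Dusp1 stood at -0.31 in the L6-WT monolayer, -0.17 in the L6-HGF monolayer, 1.07 in the L6-WT sheet and 0.17 in the L6-HGF sheet. The L6-WT sheet alone was high, 2.61-fold above the L6-WT monolayer, with 1.65 and 1.12 (log2) in its 2 probe sets. Between the sheets the difference was 1.87-fold, and 1 of the 2 probe sets, with -1.12, passed 2-fold.

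Dusp6 stood at 0.17 in the L6-WT monolayer, 0.24 in the L6-HGF monolayer, -0.13 in the L6-WT sheet and -1.20 in the L6-HGF sheet. The L6-HGF sheet alone was low in all 3 probe sets, which stood there at -1.03, -1.16 and -1.42. Dusp6 was 2.72-fold lower in the sheet than in the monolayer of L6-HGF, against 1.23-fold in L6-WT, and 2.10-fold lower in L6-HGF than in L6-WT sheets. In monolayers the log2 difference between the cell lines was 0.07. Dusp4, a nuclear phosphatase of ERK, stood at 0.57 in the L6-WT sheet and between -0.08 and 0.06 in the other arrays. Dusp5, a nuclear phosphatase that binds ERK, stood at -0.38 in the L6-WT sheet and 0.50 in the L6-HGF sheet, and was 1.84-fold higher in the latter. Its promoter carried the paired CArG boxes shown above. Dusp2 and Dusp7 lay between -0.39 and 0.26 in all 4 comparisons.

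The Sprouty proteins inhibit receptor tyrosine kinase signalling upstream of ERK. Spry1 was the gene past 2-fold in monolayers. It stood at 0.83 in the L6-WT monolayer, -0.64 in the L6-HGF monolayer, 0.40 in the L6-WT sheet and -0.40 in the L6-HGF sheet, from 1 probe set. Both L6-HGF arrays were below both L6-WT arrays, by 2.77-fold in monolayers and 1.73-fold in sheets. Spry2 and Spry4 did not follow it. They had log2 differences between the cell lines of 0.16 and -0.10 in monolayers and 0.11 and 0.02 in sheets. Both were lower in sheets than in monolayers of each cell line, with Spry2 at -0.53 in L6-WT and -0.57 in L6-HGF, and Spry4 at -0.39 and -0.26.

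ETV1, ETV4 and ETV5 are ETS factors of the PEA3 group, whose genes are commonly controlled by FGF and ERK signalling. All 3 had values below 0 in all 4 comparisons. Etv1 stood at 0.40 in the L6-WT monolayer, -0.24 in the L6-HGF monolayer, 0.34 in the L6-WT sheet and -0.85 in the L6-HGF sheet, as the mean of 5 probe sets. Both L6-HGF arrays were below both L6-WT arrays, as for Spry1, by 1.55-fold in monolayers and 2.28-fold in sheets. Its probe sets lay between -0.90 and 0.01 (log2) in monolayers and between -1.46 and -0.59 in sheets. Etv4 stood at 0.39, 0.28, -0.28 and -0.65 (L6-WT monolayer, L6-HGF monolayer, L6-WT sheet, L6-HGF sheet) and Etv5 at 0.47, 0.19, -0.19 and -0.37. Both sheets were below both monolayers for these genes, as for Nr4a1. Between sheet and monolayer, Etv4 had -0.67 in L6-WT and -0.93 in L6-HGF, and 1 of its 2 probe sets, with -1.02, passed 2-fold in L6-HGF. One of the 2 probe sets of Etv5 passed 2-fold in both cell lines, with -1.04 and -1.05, while the other had -0.28 and -0.08.

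**Figure D4:**
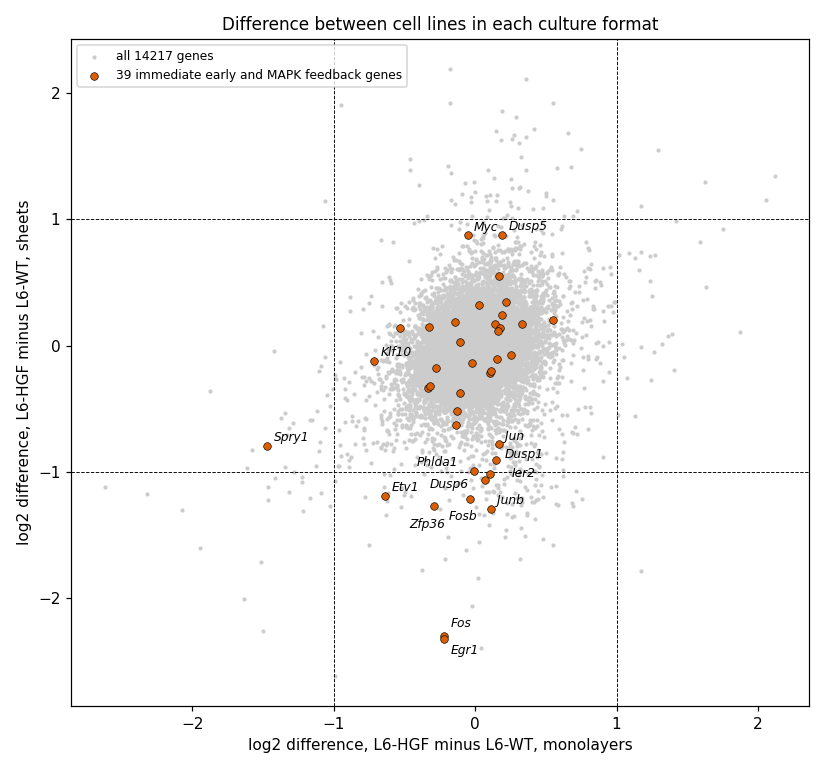
Log2 values of L6-HGF minus L6-WT, plotted for monolayers on the horizontal and for sheets on the vertical axis, for 14217 genes (grey) and the 39 immediate early and MAPK feedback genes (orange), with 1 point per gene and dashed lines at 2-fold. The 8 genes past 2-fold in sheets lie below 0 there and within 2-fold in monolayers, whereas Spry1 (-1.47) is the gene past 2-fold in monolayers.

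Of the 39 genes, 25 had a difference between L6-HGF and L6-WT of the same sign in monolayers and in sheets, or 64.1%, against 57.6% of all genes. Of the 8 genes past 2-fold in sheets, Etv1 had the largest difference in monolayers, at -0.64, and Junb, Ier2 and Dusp6 had values above 0 there. With 4 arrays it cannot be tested whether a difference between the cell lines depends on the format. A limma model over all 4 arrays, with terms for cells and for format and 1 residual degree of freedom, gave 0 of 31042 probe sets (0%) an adjusted p under 0.05 for the effect of the cell line common to both formats, and 0 (0%) for the effect of the format common to both cell lines. The smallest adjusted p from limma among the 67 probe sets was 0.505 for the cell line and 0.158 for the format. At an unadjusted p under 0.05 in limma, 11 of the 67 probe sets were lower and 1 was higher in L6-HGF, or 17.9%, against 9.59% of all probe sets in either direction. These belonged to Spry1, Etv1, Etv5, Egr2, Klf2, Klf6, Zfp36 and Jund. Etv1 and Klf6 each gave more than 1 of them, so that the probe sets in this count are not independent. For the format, 15 were lower and 5 were higher in sheets, or 29.9%, against 20.4% of all probe sets, and several of these share a gene. The residual of this model holds any true difference of an effect between the other conditions, and for Egr1 and the Fos probe set that moved, the log2 difference between the cell lines was lower in sheets than in monolayers (-2.10 and -4.27).

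The genes of the cascade that leads to the early genes were taken from a separate list. Of 27 measured genes from receptors through RAS and ERK to the nuclear factors, 0 passed 2-fold between L6-HGF and L6-WT in either format. Over all genes, 0.225% were more than 2-fold higher and 0.309% lower in L6-HGF monolayers, and 0.492% and 0.95% in sheets. At these shares, 0 of 27 does not set the list apart from all genes. The medians of the 27 genes were 0.06 in monolayers and -0.0077 in sheets. Met, the HGF receptor, passed 2-fold in a single comparison, being 2.38-fold lower in the sheet than in the monolayer of L6-HGF and 1.53-fold lower in L6-WT. Rps6ka3, which encodes the ERK-activated kinase RSK2, had the highest difference between the sheets, 0.92 (log2) in L6-HGF compared with L6-WT. This is the mean of 3 probe sets, of which 1 had 1.62. Ptpn11 had 0.64 between the sheets, and 1 of its 2 probe sets, with 1.02, passed 2-fold. Between sheet and monolayer, 20 of the 27 genes were below 0 in L6-WT and 19 in L6-HGF, with medians of -0.26 and -0.25. Over all genes, 45.6% were below 0 in L6-WT and 45.9% in L6-HGF, with medians of 0.028 and 0.026.

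In a list of 48 further early genes, 4 lay past 2-fold below and 1 above the L6-WT sheet in the L6-HGF sheet. Over all genes, 0.95% lay past 2-fold below and 0.492% above. The chemokine genes Cxcl1 and Ccl2 were highest in the L6-WT sheet, as was Fos. Cxcl1 stood at -0.02 in the L6-WT monolayer, 0.02 in the L6-HGF monolayer, 1.66 in the L6-WT sheet and -0.73 in the L6-HGF sheet, and Ccl2 at 0.11, -0.11, 1.36 and -0.33. The matricellular gene Ccn1 and Id3, an inhibitor of differentiation, were lowest in the L6-HGF sheet, as was Egr1. Ccn1 stood at -0.04, 0.13, 0.04 and -1.12, and Id3 at 0.29, 1.04, -0.29 and -1.50. Bhlhe40, a repressor that also responds to low oxygen, was 2.20-fold higher in the L6-HGF sheet. Between sheet and monolayer, 3 of the 48 were more than 2-fold higher and 0 lower in L6-WT, against 0.717% and 0.492% of all genes. In L6-HGF, 3 were higher and 2 lower, against 1.17% and 2.57%. Sgk1, a serum-induced kinase, was higher in both sheets, by 2.16-fold in L6-WT and 2.55-fold in L6-HGF. Gadd45a was 1.56-fold higher in the L6-WT sheet and 2.11-fold higher in the L6-HGF sheet than in their monolayers. Hes1, a target of Notch, was 2.07-fold lower in L6-HGF monolayers, the member of this list past 2-fold there. The medians of the 48 genes in the comparisons between L6-HGF and L6-WT were -0.02 in monolayers and -0.15 in sheets. Over all genes they were 0.0016 and -0.02.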

How the data were processed

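Total RNA of 4 cultures was hybridised by the authors to Affymetrix rat genome arrays, 1 array per condition, and normalized to median with the RMA algorithm (its version is not given in the sources). The deposited log2 values are centred on the median of the 4 arrays for each probe set, which was checked in the values. This removes signal level, so dim probe sets could not be filtered out, and precision is limited by the number of arrays. Of 31099 probe sets, 57 controls were left out, 20826 had 1 gene symbol in the platform annotation, 436 had several and 9780 were not listed. A gene was the mean over its probe sets with 1 symbol. Array groups were taken from the sample titles, and log2 differences were computed for cell line in each format and for format in each cell line, with a threshold of 2-fold. Limma (version 3.58.1, R 4.3.3) was fitted over all probe sets with Benjamini-Hochberg adjustment, after a test on simulated data. The simulated noise had the same SD for all probe sets, so that the test does not show what limma could call in these arrays. Python 3.11.15, pandas 2.3.3, numpy 2.4.6 and matplotlib 3.10.9 were used for the rest. Genes past 2-fold as a gene or in any probe set were given in full, 16 in all, and the others by range. The members, the gene lists and the tests were chosen with earlier results of these data known. Alternatives were quantile normalization and array centring, other summaries of probe sets, and other limma models. Promoter sequences are from RefSeq (GRCr8), and the sequences begin 250 bases before the annotated gene start. No genome build was stated for the array.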

Additional observations from a re-analysis of the deposited data

How the results depend on the processing

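Of 76 recomputed differences of the members past 2-fold, 70 stayed past 2-fold in the same direction, 6 came within 2-fold and 0 changed direction. Quantile normalization, which could act only on the centred values, brought Dusp6 to -0.71 and Etv1 to -0.98 (log2) between L6-HGF and L6-WT sheets, and Nr4a1 to -0.94 and Phlda1 to -0.90 between the L6-HGF sheet and monolayer. Dusp1 passed 2-fold between the sheets and Ier2 between the formats of L6-WT under this setting. It left 3 genes more than 2-fold lower in the L6-HGF sheet than in its monolayer, in place of 5, while the share over all genes was 1.70% in place of 2.57%. It moved Fos from -2.30 to -1.42 between the sheets and from 2.46 to 1.57 between the formats of L6-WT. With the median of probe sets, Nr4a3 had -0.56 in L6-WT and -0.83 in L6-HGF between sheet and monolayer, since 1 of its 3 probe sets carries most of the difference, and 1 gene, Nr4a1, was more than 2-fold lower in L6-WT. With each probe set counted on its own, 14 of 67 lay past 2-fold below the L6-WT sheet in the L6-HGF sheet, and 10 lay past 2-fold below the monolayer in the sheet of L6-HGF, against 0.715% and 2.04% of all probe sets. Centring each array on its median, and leaving out probe sets that can match several transcripts, changed no call. In limma on gene means, Dpt and Txnip, 2 genes that are no members, had an adjusted p of 0.034 for the format, and the smallest adjusted p from limma among the members was 0.115, for Nr4a1. No paired analysis was possible because each condition is 1 array without replicate numbers, and for the same reason no replicate could be left out. Array signal over background is not known from centred values, so that a gene within 2-fold may have been too dim to measure.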

Other observations

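Among 21 measured kinases of the JNK and p38 routes and other dual-specificity phosphatases, 0 passed 2-fold between L6-HGF and L6-WT in either format. Over all genes, 0.225% were more than 2-fold higher and 0.309% lower in L6-HGF monolayers, and 0.492% and 0.95% in sheets. At these shares, 0 of 21 does not set the list apart from all genes. The medians of the 21 genes were 0.01 in monolayers and 0.03 in sheets. Dusp10, a phosphatase of JNK and p38, was higher in sheets than in monolayers, by 2.04-fold in L6-WT and 1.74-fold in L6-HGF. Of 11 heat and cold shock genes, 0 passed 2-fold in any comparison, against 4.76% of all genes in at least 1 comparison. The small heat shock gene Hspb1 had the largest difference among them, 0.79 (log2) in L6-HGF compared with L6-WT sheets.

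Klf5, a KLF factor outside the members listed, was lower in sheets than in monolayers over 4 probe sets, by -0.96 in L6-WT and -0.94 in L6-HGF (log2). Of its probe sets, 3 passed 2-fold in both cell lines, with -1.18, -1.53 and -1.19 in L6-HGF.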
